A study of Mus musculus with 32 samples.

Results

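Described here are 37 genes of fatty acid oxidation in mitochondria, peroxisomes and microsomes, with peroxisome and ketone body genes, across 4 groups of mouse livers. They were taken by gene name on the array, from a list made with earlier results of these data known. All 37 are spotted there, by 62 of the 56605 non-control probes, and all 37 were among the 23644 genes tested. The livers came from 32 male F1 C57BL/6J mice, 8 per group and 1 array per mouse, taken at 21 weeks of age. The groups were Western diet with E171, Western diet control, normal diet with E171 and normal diet control. E171 is the food-grade titanium dioxide additive (fg-TiO2). It was given in food pellets, aiming at 10 mg/kg body weight daily, and control pellets had none (0 mg/kg). Treatment began in the F0 mothers before they were mated, and each F1 litter kept the pellets its mother had. The Western diet began at 5 weeks of age and lasted 16 weeks. The treatment protocol in the labels calls that diet high in fat and the group labels call it Western, and the second name is used here. No transgene or deletion is named in any group. Litter, time of day and feeding state at sampling are not stated in the labels. Littermates may be among the 8 mice of a group, and p-values then measure only the spread between these mice. The submitters set the diet groups up to see whether diet worsens what E171 does.

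A fatty acid is first joined to coenzyme A, and long chains enter the mitochondrion as carnitine esters. There the chain is shortened in repeated rounds of dehydrogenation, hydration, a second dehydrogenation and thiolysis, with helper enzymes for double bonds and with electron transfer flavoprotein as the electron carrier. Peroxisomes shorten very long and branched chains by their own oxidases, bifunctional enzymes and thiolases. Microsomal cytochromes of the Cyp4a family oxidise the far (omega) end of the chain, and fatty aldehyde dehydrogenase completes that route. In mouse liver many of these genes are known targets of PPARα, a nuclear receptor activated by fatty acids, which binds DNA with its partner RXR at a direct repeat of a short element with a single spacer base.

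That element was looked for in the promoters, because many of these genes, whether or not they rose on the Western diet, are PPARα targets by background knowledge. RefSeq promoter windows (GRCm38.p6, 250 bases before to 50 after the annotated start) matched 29 of the 37 genes, with 33 windows. The direct repeat AGGTCANAGGTCA was searched on both strands, with N as any base. No member window held it exactly or with 1 letter different, against 0.0396% and 0.554% of all 32851 windows. With up to 2 letters different it was in 4 of 33 member windows (12.1%), those of Acox2, Echs1, Etfa and Slc25a20, against 3.86% of all windows. The single element AGGTCA, which is part of the repeat, was in 4 of 33 member windows as well (12.1%), those of Acadm, Acadvl, Cpt1a and Echs1, against 16.3% of all windows. Of the 5 genes called and at least 2-fold higher on the Western diet in controls, Aldh3a2, Acaa1b, Pdk4 and Ehhadh had a window. None of these windows held either form. Sequence outside the windows was not searched, so a window without a match does not show that a gene lacks the element. A match is a description of letters and not a site. Shown are the 3 windows of members that rose in both diet comparisons and hold a match, that of Slc25a20 (chr9:108661886-108662185, plus strand) with the repeat at up to 2 different letters in capitals, from 6 to 18 bases past the start, and those of Cpt1a (chr19:3323051-3323350, plus strand) and Acadm (chr3:153944594-153944893, minus strand) with the single element, here on the opposite strand, in capitals at -94 and -249.
Slc25a20: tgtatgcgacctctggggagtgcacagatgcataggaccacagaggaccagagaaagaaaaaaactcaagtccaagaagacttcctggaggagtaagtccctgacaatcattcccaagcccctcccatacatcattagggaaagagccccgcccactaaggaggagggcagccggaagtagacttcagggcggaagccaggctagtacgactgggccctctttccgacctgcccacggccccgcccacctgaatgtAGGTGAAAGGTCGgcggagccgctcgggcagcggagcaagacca
Cpt1a: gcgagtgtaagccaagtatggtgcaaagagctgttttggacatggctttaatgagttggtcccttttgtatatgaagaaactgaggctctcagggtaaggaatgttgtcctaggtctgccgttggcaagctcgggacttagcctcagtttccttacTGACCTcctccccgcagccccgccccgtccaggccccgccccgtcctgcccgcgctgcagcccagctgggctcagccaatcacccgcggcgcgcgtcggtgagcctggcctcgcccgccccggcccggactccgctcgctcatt
Acadm: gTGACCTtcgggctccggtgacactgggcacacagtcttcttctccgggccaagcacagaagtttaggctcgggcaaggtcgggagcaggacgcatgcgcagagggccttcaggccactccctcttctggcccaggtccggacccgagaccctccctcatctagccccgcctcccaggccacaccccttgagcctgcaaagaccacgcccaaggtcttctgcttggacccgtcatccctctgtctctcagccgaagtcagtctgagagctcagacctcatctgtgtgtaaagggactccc

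The arrays measure each gene by probes of 60 bases. Below stand, from the array files and with mm9 positions, a probe of Acaa1a (chr9:119255643-119256863), a probe of Aldh3a2 (chr11:61078742-61080359) and the probe of Cyp4a14 (chr4:115168609-115168668). They are given because the Acaa1a probe differed in its result from the other probe of that gene, because Aldh3a2 was the member with the largest rise in controls, and because Cyp4a14 varied most between mice in 3 of the 4 groups. The positions of the first pair are outer ends, between which the probe covers separate pieces.
Acaa1a: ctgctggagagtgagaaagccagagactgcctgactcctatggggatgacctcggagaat
Aldh3a2: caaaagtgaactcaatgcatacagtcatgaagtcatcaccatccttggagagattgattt
Cyp4a14: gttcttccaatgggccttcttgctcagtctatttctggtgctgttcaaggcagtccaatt

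A level is the log2 processed signal minus the log2 of the 75th percentile of its array, so that 0 is that percentile, and a difference is between group means on this log2 scale. A gene was called where limma's adjusted p over all 23644 genes was under 0.05. Between 32164 and 37261 probes per array were well above background, and the chosen probe of every one of the 37 genes was so on all 32 arrays. The 75th percentile lay at 249 to 489 intensity units. The 10 hepatocyte markers were lower on the Western diet in 10 of 10 cases in E171 mice and in 10 of 10 in controls. The log2 of the sum of their unlogged levels gives the brightest markers the most weight. It was 11.82 to 12.27 in Western diet E171 mice against 12.33 to 12.73 in normal diet E171 mice. In controls it was 11.77 to 12.40 on the Western diet against 12.32 to 12.63 on the normal diet. Of 4 markers of pericentral hepatocytes, 3 were higher and 0 lower in E171 mice, and 0 higher and 1 lower in controls. Of 4 periportal ones, 0 were higher, with 2 lower in E171 mice and 1 in controls. Markers of Kupffer cells and macrophages rose in 6 of 9 cases in each comparison, of lipid-associated macrophages in 4 of 5, of stellate cells in 6 of 7, and of cholangiocytes in 4 of 5 in E171 mice and 3 of 5 in controls. Of 6 endothelial markers, 2 rose and 2 fell in each comparison. Among all genes 21.9% were higher and 32% lower in E171 mice, and 18.7% and 28.5% in controls. In bulk liver, fewer cells of a type and less RNA per cell cannot be told apart, and the part of these shifts in the results below was not tested.

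The Western diet was accompanied by higher mRNA of most of these genes, led by Aldh3a2, Vnn1 and Acaa1b, with smaller rises along the mitochondrial route. The members were chosen with earlier results of these data known, so a share above that of all genes is a description and no test. In E171 mice 22 of 37 members were higher and 2 lower, against a background of 21.9% and 32% of all genes tested (53.9% in either direction). In controls 22 were higher and 4 lower, against 18.7% and 28.5% of all genes (47.2% in either direction). The median difference of the members was 0.26 in E171 mice and 0.35 in controls, beside -0.11 and -0.10 for all genes. The 8 Western diet mice lay wholly above the 8 normal diet mice for 14 members in E171 mice and 5 in controls, where 8.93% and 4.62% of all genes did so. Higher in both comparisons were 21 members, and 1, Etfb, was lower in both. Among all genes 16.6% were higher in both and 23.1% lower in both. Only 1 rise was called in controls alone (Abcd2) and 1 in E171 mice alone (Echs1), and 9 members were called in neither.

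**Figure D1:**
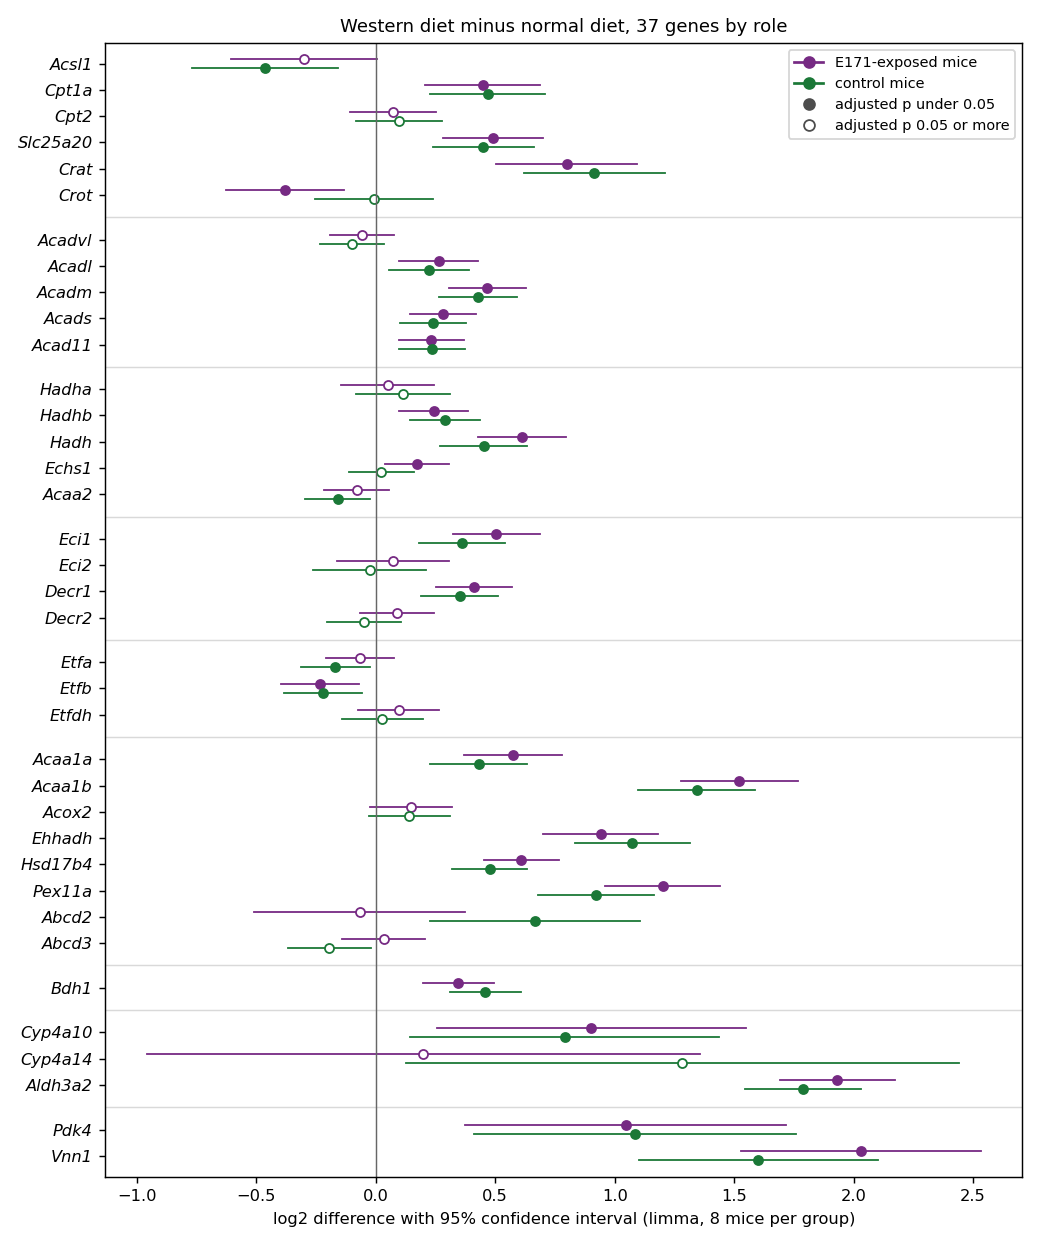
Western minus normal diet difference of each of the 37 genes, in rows grouped by role, with the log2 difference and its 95% confidence interval on the horizontal axis (purple, E171-exposed mice; green, control mice; 8 mice per group; filled points have an adjusted p under 0.05). The 22 rises in each comparison stand right of 0, with Aldh3a2 at 1.93 and 1.79, and the shuttle gene Acsl1 and the electron carrier gene Etfb stand left of it.

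The step that closes omega oxidation held the largest rise in controls. Aldh3a2 (probe at chr11:61058399-61058458, mm9) encodes fatty aldehyde dehydrogenase. In E171 mice its level was 5.86 to 6.25 (median 6.01) on the Western diet, against 3.81 to 4.21 (median 4.17) on the normal diet. In control mice it was 5.81 to 6.11 (median 6.00) on the Western diet, against 3.64 to 4.74 (median 4.13) on the normal diet. The diets did not overlap in either comparison. The difference was 1.93 (SE 0.12, 3.82-fold, adjusted p = 1.06e-13) in E171 mice and 1.79 (SE 0.12, 3.45-fold, adjusted p = 8.54e-13) in controls. Its 3 kept probes gave 1.93 to 2.04 in E171 mice and 1.79 to 2.10 in controls, and the fourth probe was not above background on any array.

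The omega hydroxylases Cyp4a10 and Cyp4a14, close relatives whose products catalyse the first step of this route, differed more between mice. Cyp4a10 (chr4:115205268-115205756) ran at 3.57 to 5.15 (median 4.20) in Western diet E171 mice, against 2.60 to 4.03 (median 3.71) in normal diet E171 mice. Among controls it ran at 3.70 to 4.75 (median 4.0) on the Western diet, against 1.79 to 4.34 (median 3.50) on the normal diet. Both pairs of groups overlapped. The gene rose by 0.90 (SE 0.32, adjusted p = 0.0175) in E171 mice and by 0.79 (SE 0.32, adjusted p = 0.04) in controls, and its other probes gave 0.78 and 0.78 in E171 mice and 0.74 and 0.72 in controls. The call in controls was lost (adjusted p = 0.0589 to 0.111, difference 0.57 to 0.77) without any 1 of 7 arrays, those of Western diet controls 1, 2 and 4 and normal diet controls 2, 3, 4 and 5.

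Cyp4a14 ran at -3.35 to -0.84 (median -2.03) in Western diet E171 mice, against -3.57 to -0.76 (median -2.04) in normal diet E171 mice. Control mice ran at -2.72 to -0.20 (median -1.12) on the Western diet, against -5.32 to 0.16 (median -2.41) on the normal diet. The normal diet controls thus held both the lowest and the highest mouse of all 32. The level of -5.32 lay near the detection floor, so the size of this spread is uncertain. On the normal diet control arrays the dimmest intensity well above background was 6.29 to 8.93 units, with 75th percentiles of 308 to 441. The difference was 0.20 (95% interval -0.96 to 1.36, adjusted p = 0.78) in E171 mice and 1.28 (0.13 to 2.44, adjusted p = 0.0622) in controls, neither past the threshold. Without Western diet control 6 it was 1.51 (adjusted p = 0.0303) in controls, without normal diet control 6 it was 1.65 (adjusted p = 0.0131), and without normal diet control 7 it was 1.58 (adjusted p = 0.0206). The interaction, -1.08 (95% interval -2.72 to 0.55, adjusted p = 0.996), was not past the threshold. Whether the probes of these near relatives pair with each other's mRNA was not tested.

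**Figure D2:**
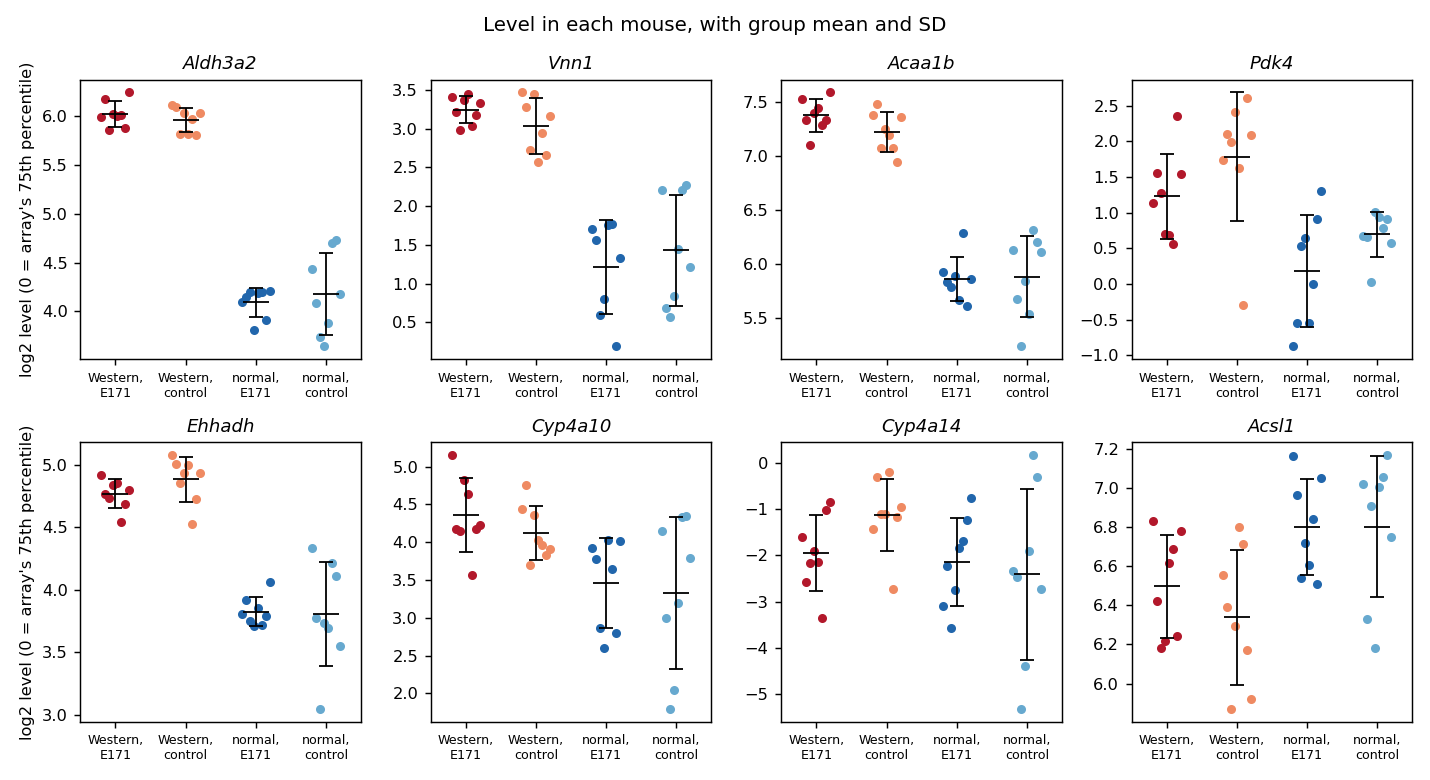
Log2 level of 8 members in each mouse (vertical axis; 0 is the 75th percentile of the array) in the 4 groups, with points for mice and a bar for the group mean with its SD (n = 8 each). Aldh3a2, Vnn1, Acaa1b and Ehhadh separate the diets in both comparisons, whereas Pdk4, Cyp4a10, Cyp4a14 and Acsl1 overlap.

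Of the peroxisomal group, 5 of 8 members rose in E171 mice and 6 of 8 in controls, and 0 fell. The thiolase genes Acaa1a and Acaa1b cleave the shortened chain. Acaa1b (chr9:119057326-119057385) ran at 7.10 to 7.59 (median 7.37) in Western diet E171 mice, against 5.61 to 6.29 (median 5.84) in normal diet E171 mice. In controls Acaa1b ran at 6.94 to 7.48 (median 7.22) on the Western diet, against 5.23 to 6.31 (median 5.98) on the normal diet. No Western diet mouse reached down to a normal diet mouse. The rise was 1.52 (SE 0.12, 2.87-fold, adjusted p = 2.51e-11) in E171 mice and 1.34 (SE 0.12, 2.54-fold, adjusted p = 4.22e-10) in controls.

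Its neighbour Acaa1a, by its brighter probe (chr9:119259353-119259412), ran at 6.76 to 7.34 (median 7.11) in Western diet E171 mice, against 6.26 to 6.79 (median 6.50) in normal diet E171 mice. In controls it ran at 6.69 to 7.22 (median 6.95) on the Western diet, against 6.06 to 6.79 (median 6.58) on the normal diet. The groups overlapped slightly in both. By this probe the rise was 0.57 (SE 0.10, adjusted p = 1.97e-05) in E171 mice and 0.43 (SE 0.10, adjusted p = 0.000787) in controls. The second Acaa1a probe, whose sequence is given above, gave 1.23 (adjusted p = 2.26e-08) and 1.16 (adjusted p = 9.24e-08), nearer to the values of Acaa1b. Whether that probe also pairs with Acaa1b mRNA was not tested, so the size of the Acaa1a rise is uncertain between these values.

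Pex11a, a membrane protein of peroxisome division, rose by 1.20 (2.30-fold) in E171 mice and 0.92 (1.90-fold) in controls. Ehhadh, the bifunctional enzyme of straight chains, rose by 0.94 (1.92-fold) and 1.07 (2.10-fold). For both genes the diets did not overlap in either comparison. Hsd17b4, the bifunctional enzyme of branched chains and bile acid precursors, rose by 0.61 and 0.48. Acox2, the oxidase of branched chains and bile acid intermediates, gave 0.15 and 0.14, neither past the threshold (adjusted p = 0.134 and 0.167).

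The transporters Abcd2 and Abcd3 bring acyl-CoA into peroxisomes. Abcd2 (chr15:90976316-90976375) ran at -2.20 to -1.31 (median -1.91) in Western diet E171 mice, against -2.39 to -1.34 (median -1.60) in normal diet E171 mice. Control mice ran at -2.07 to -1.52 (median -1.76) on the Western diet, against -3.82 to -1.83 (median -2.17) on the normal diet. The normal diet controls reached lowest, and each pair of groups overlapped. The difference was -0.07 (95% interval -0.51 to 0.37, adjusted p = 0.804) in E171 mice and 0.67 (SE 0.22, adjusted p = 0.012) in controls. The interaction was -0.73 (95% interval -1.36 to -0.11, unadjusted p = 0.0223, adjusted p = 0.893), so a difference between these effects was not called.

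Abcd3 (chr3:121461892-121461951) ran at 6.25 to 6.69 (median 6.58) in Western diet E171 mice, against 6.32 to 6.72 (median 6.50) in normal diet E171 mice. Controls had Abcd3 at 6.18 to 6.75 (median 6.43) on the Western diet, against 6.20 to 6.88 (median 6.66) on the normal diet. All 4 ranges overlapped. The difference was 0.03 (adjusted p = 0.758) in E171 mice and -0.19 (adjusted p = 0.0593) in controls. In controls it passed without Western diet control 1 (-0.24, adjusted p = 0.0196), without normal diet control 2 (-0.26, adjusted p = 0.00908) or without Western diet E171 mouse 4 (-0.19, adjusted p = 0.0493).

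Among the other known PPARα targets, both members rose in both comparisons. Vnn1 (chr10:23624524-23624583), which encodes pantetheinase, an enzyme that releases cysteamine and the coenzyme A precursor pantothenate, ran at 2.98 to 3.45 (median 3.27) in Western diet E171 mice, against 0.19 to 1.77 (median 1.45) in normal diet E171 mice. In controls Vnn1 ran at 2.57 to 3.47 (median 3.05) on the Western diet, against 0.57 to 2.27 (median 1.33) on the normal diet. The diets did not overlap. The rise was 2.03 (SE 0.25, 4.08-fold, adjusted p = 6.77e-08) in E171 mice, the largest of the members there, and 1.60 (SE 0.25, 3.03-fold, adjusted p = 4.1e-06) in controls. Pdk4, a kinase that shuts off pyruvate dehydrogenase and so spares glucose, rose by 1.05 (SE 0.33, 2.06-fold, adjusted p = 0.00878) in E171 mice and by 1.09 (SE 0.33, 2.12-fold, adjusted p = 0.00778) in controls. Its levels overlapped between diets, with Western diet control 6 at -0.30 and the other Western diet controls at 1.62 to 2.61, against 0.02 to 1.02 in normal diet controls.

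On the carnitine route, 3 of 6 members rose and 1 fell in each comparison. Cpt1a (chr19:3385374-3385433), the carnitine palmitoyltransferase of the outer membrane and the main control point of entry, ran at 5.01 to 5.80 (median 5.53) in Western diet E171 mice, against 4.75 to 5.26 (median 5.04) in normal diet E171 mice. In controls Cpt1a ran at 5.26 to 5.77 (median 5.42) on the Western diet, against 4.50 to 5.29 (median 5.06) on the normal diet. The ranges overlapped in both comparisons. The rise was 0.45 (SE 0.12, 1.36-fold, adjusted p = 0.0022) in E171 mice and 0.47 (SE 0.12, 1.38-fold, adjusted p = 0.00179) in controls. Crat, which moves acetyl groups onto carnitine, rose by 0.80 and 0.92, and Slc25a20, the carrier across the inner membrane, by 0.49 and 0.45. A second Crat probe gave 0.50 (adjusted p = 0.0698) and 0.50 (adjusted p = 0.0759), neither past the threshold. In controls the Crat difference was 0.12 on array slide 1 and 1.08 to 1.24 on the other slides. Cpt2, the enzyme that frees the chain inside, gave 0.07 and 0.10 (adjusted p = 0.492 and 0.381).

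Acsl1 (chr8:47621232-47621291), the main long-chain acyl-CoA synthetase, ran at 6.18 to 6.83 (median 6.52) in Western diet E171 mice, against 6.51 to 7.16 (median 6.78) in normal diet E171 mice. In controls Acsl1 ran at 5.87 to 6.80 (median 6.34) on the Western diet, against 6.18 to 7.17 (median 6.95) on the normal diet. The groups overlapped in both. The difference was -0.30 (95% interval -0.61 to 0.00, adjusted p = 0.088) in E171 mice and -0.46 (SE 0.15, adjusted p = 0.0122) in controls. The fall in controls was lost with quantile normalization (-0.24, adjusted p = 0.142), with normexp and quantile (-0.24, adjusted p = 0.161) and in the authors' deposited table (-0.22, adjusted p = 0.212). With the scaling on hepatocyte markers the difference of Acsl1 was 0.38 in E171 mice and 0.056 in controls. A second probe of the gene gave -0.52 (adjusted p = 0.0126) and -0.63 (adjusted p = 0.00359). Crot (chr5:8966430-8966489), the peroxisomal carnitine octanoyltransferase, ran at 4.28 to 5.10 (median 4.68) in Western diet E171 mice, against 4.82 to 5.37 (median 5.06) in normal diet E171 mice. Its control levels were 4.92 to 5.31 (median 5.03) on the Western diet, against 4.56 to 5.52 (median 5.13) on the normal diet. Crot fell by 0.38 (SE 0.12, adjusted p = 0.00904) in E171 mice, and the difference was -0.01 (95% interval -0.26 to 0.24, adjusted p = 0.958) in controls. The interaction for Crot was -0.37 (adjusted p = 0.925). The fall in E171 mice was lost with quantile normalization (-0.20, adjusted p = 0.143), with normexp and quantile (-0.23, adjusted p = 0.0983) and in the authors' deposited table (-0.20, adjusted p = 0.154). With the scaling on hepatocyte markers Crot gave 0.30 and 0.51. A second Crot probe, assigned to an Ensembl transcript, gave -0.61 (adjusted p = 0.0337) and -0.87 (adjusted p = 0.00388).

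The acyl-CoA dehydrogenases open each round, and 4 of 5 rose in each comparison. Acadm, of medium chains, rose by 0.47 in E171 mice and 0.43 in controls. Acads, of short chains, rose by 0.28 and 0.24, Acadl, of long chains, by 0.26 and 0.22, and their relative Acad11 by 0.23 and 0.24. These rises were between 1.17-fold and 1.38-fold. For Acad11 the 3 other probes gave 0.16, 0.06 and -0.10 in E171 mice and 0.25, -0.09 and -0.13 in controls. With the mean of all kept probes Acad11 did not pass, at 0.088 (adjusted p = 0.505) in E171 mice and 0.065 (adjusted p = 0.644) in controls. Acadvl, of very long chains, gave -0.06 and -0.10 (adjusted p = 0.473 and 0.223). For Acadl the call in controls was lost (adjusted p = 0.0517 to 0.0614, difference 0.19 to 0.20) without any 1 of 5 arrays, those of Western diet controls 1 and 6 and normal diet controls 2, 5 and 8.

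The later steps of the round were mixed. Hadh, the dehydrogenase of shorter hydroxy chains, rose by 0.61 in E171 mice and 0.45 in controls. Of the trifunctional protein, the beta subunit gene Hadhb rose by 0.24 and 0.29, while the alpha subunit gene Hadha gave 0.05 and 0.11 (adjusted p = 0.676 and 0.341). The other Hadhb probes gave 0.19 and 0.03 in E171 mice and 0.27 and -0.28 in controls. With the mean of all kept probes Hadhb did not pass, at 0.15 (adjusted p = 0.15) in E171 mice and 0.092 (adjusted p = 0.41) in controls. Echs1, the hydratase of short chains, rose by 0.17 in E171 mice (adjusted p = 0.029) and gave 0.02 in controls (adjusted p = 0.784), with an interaction of 0.15 (adjusted p = 0.981). The Echs1 call was lost (adjusted p = 0.0542 to 0.0735, difference 0.14 to 0.16) without Western diet E171 mouse 1, 2 or 5 or normal diet E171 mouse 6. It was lost as well with the mean of all kept probes (0.13, adjusted p = 0.143) and without a filter on dim probes (0.17, adjusted p = 0.0535). Acaa2, the mitochondrial thiolase, gave -0.08 (adjusted p = 0.314) in E171 mice and fell by 0.16 (adjusted p = 0.0497) in controls. That fall was lost without any 1 of 22 of the 32 arrays, with adjusted p up to 0.14. Acaa2 turned to 0.043 in controls with quantile normalization, 0.064 with normexp and quantile, 0.064 in the authors' deposited table and 0.36 (adjusted p = 0.000792) with the scaling on hepatocyte markers.

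For unsaturated chains, 2 of 4 enzymes rose in each comparison. They were the mitochondrial forms, the isomerase Eci1 (0.51 in E171 mice and 0.36 in controls) and the dienoyl-CoA reductase Decr1 (0.41 and 0.35). The peroxisomal reductase Decr2 gave 0.09 and -0.05, and Eci2, an isomerase found in peroxisomes and mitochondria, gave 0.07 and -0.03, none past the threshold. No test set the mitochondrial forms against the peroxisomal ones.

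No electron carrier gene was called higher, except with other scalings. With the scaling on hepatocyte markers Etfb gave 0.45 in E171 mice and 0.30 in controls, and Etfa 0.61 and 0.35. Etfb (chr7:50713078-50713137), the beta subunit of electron transfer flavoprotein, ran at 6.84 to 7.29 (median 7.16) in Western diet E171 mice, against 7.21 to 7.55 (median 7.32) in normal diet E171 mice. In controls Etfb ran at 6.78 to 7.34 (median 7.04) on the Western diet, against 7.06 to 7.50 (median 7.29) on the normal diet. It fell by 0.23 (SE 0.08, adjusted p = 0.0161) in E171 mice and by 0.22 (SE 0.08, adjusted p = 0.0242) in controls. With quantile normalization Etfb gave -0.03 (adjusted p = 0.62) in E171 mice and -0.0053 (adjusted p = 0.947) in controls. The fall in controls was lost without normal diet control 6 (-0.19, adjusted p = 0.0579), Western diet control 3 (-0.18, adjusted p = 0.0661) or Western diet control 4 (-0.20, adjusted p = 0.0507). A second Etfb probe gave -0.25 (adjusted p = 0.00305) in E171 mice and -0.25 (adjusted p = 0.00301) in controls, in the same scaling as the main fit.

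The alpha subunit gene Etfa (chr9:55309428-55309487) ran at 6.21 to 6.57 (median 6.31) in Western diet E171 mice, against 6.18 to 6.56 (median 6.42) in normal diet E171 mice. In controls Etfa ran at 6.11 to 6.57 (median 6.30) on the Western diet, against 6.29 to 6.60 (median 6.51) on the normal diet. All of these ranges overlapped. The difference was -0.07 (adjusted p = 0.429) in E171 mice and -0.17 (SE 0.07, adjusted p = 0.0475) in controls, and the second was lost without any 1 of 21 of the 32 arrays (adjusted p up to 0.11). With quantile normalization Etfa gave 0.14 (adjusted p = 0.0358) in E171 mice and 0.0502 (adjusted p = 0.485) in controls. Etfdh, which passes the electrons on to ubiquinone, gave 0.10 and 0.03 (adjusted p = 0.329 and 0.81), and with quantile normalization Etfdh was higher by 0.29 (adjusted p = 0.00239) and 0.21 (adjusted p = 0.0311). A second Etfdh probe gave -0.14 (adjusted p = 0.377) in E171 mice and -0.39 (adjusted p = 0.0183) in controls, and the mean of both probes -0.02 and -0.18, neither past the threshold.

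Bdh1 (chr16:31457378-31457437), the dehydrogenase that makes beta-hydroxybutyrate from acetoacetate, was the ketone body member. It ran at 5.54 to 5.87 (median 5.72) in Western diet E171 mice, against 5.25 to 5.48 (median 5.37) in normal diet E171 mice, with no overlap. In controls Bdh1 ran at 5.39 to 5.89 (median 5.67) on the Western diet, against 4.89 to 5.49 (median 5.21) on the normal diet, with an overlap. The rise was 0.35 (SE 0.07, adjusted p = 0.000217) in E171 mice and 0.46 (SE 0.07, adjusted p = 7.02e-06) in controls.

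The rises and the falls differed in how they held, which the settings partly fixed in advance. Scaling on hepatocyte markers moved every gene's diet difference up by the same amount. The members' median rose too under quantile normalization, normexp with quantile and the deposited table. It was 0.45 in E171 mice (0.26 in the main fit) and 0.47 to 0.51 in controls (0.35). Under these settings a small fall could hardly stay called and a rise hardly be lost, so the counts do not rank rises above falls. Of the 22 rises in E171 mice 19 stayed called under all 11 alternative settings, and of the 22 in controls 18. Of the 2 falls in E171 mice and the 4 in controls, 0 stayed called under all of them. With quantile normalization, with normexp and quantile, and in the deposited value table, 30, 30 and 29 members were higher in E171 mice and 28, 27 and 27 in controls, and 0 were lower in either. Those added by quantile normalization were Cpt2, Acadvl, Decr2, Eci2, Etfa, Etfdh, Acox2 and Abcd3 in E171 mice, with differences of 0.14 to 0.35, and Cpt2, Acadvl, Echs1, Decr2, Etfdh and Acox2 in controls, with 0.13 to 0.34. When each array was scaled on the hepatocyte markers, the median of all genes moved to 0.57 in E171 mice and 0.42 in controls, and that of the members to 0.94 and 0.87. Then 36 members were higher in each, and 97.7% and 96.6% of all called genes were higher. Of the called genes, 51.1% and 54.5% were higher in the authors' deposited table, against 40.7% and 39.6% here. Each of the 4 slides held 2 mice of every group. The 24 calls in E171 mice had their sign on all 4 slides, and so did 22 of those in controls. The other 4, Etfb, Abcd2, Cyp4a10 and Pdk4, had it on 3. On slide 1 the difference in controls was -0.99 for Cyp4a14, -0.04 for Cyp4a10, -0.0055 for Pdk4 and -0.0032 for Abcd2, whereas on the other slides it was 1.98 to 2.12, 0.87 to 1.41, 1.22 to 1.65 and 0.64 to 1.08.

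E171 was not accompanied by a called change in any of the 37 genes. On the Western diet 0 of 37 passed in limma, where 0.385% of all genes did, and on the normal diet 0 of 37, where 0% of all genes did. The interaction of E171 and diet and the mean effect over both diets gave 0 of 37 as well, against 0% and 0.364% of all genes. At an unadjusted p under 0.05 there were 1 member on the Western diet (Crot), 2 on the normal diet (Abcd2 and Bdh1), 2 for the interaction (Crot and Abcd2) and 5 for the mean over both diets (Crot, Acox2, Abcd2, Bdh1 and Pdk4). Among all genes 12%, 4.14%, 5.24% and 11.1% were under that value. These comparisons share mice with each other and with the diet comparisons.

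**Figure D3:**
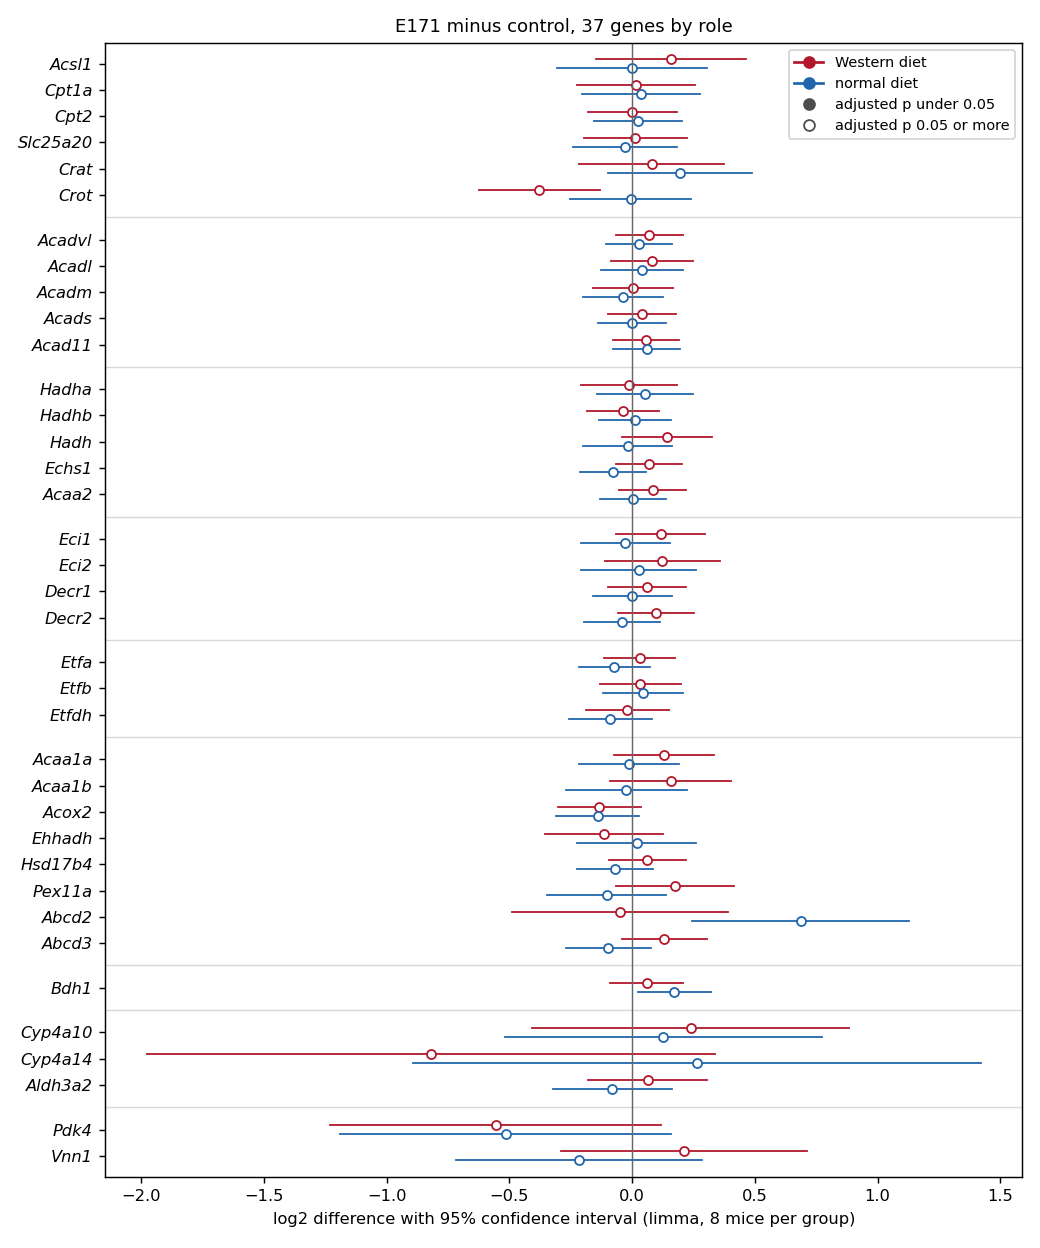
E171 minus control difference of each of the 37 genes on the Western diet (red) and on the normal diet (blue), in rows grouped by role, with the log2 difference and its 95% confidence interval on the horizontal axis (8 mice per group). All points are open, since no adjusted p was under 0.05, and the widest intervals are those of Cyp4a14.

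The confidence intervals give the range of E171 differences that these 8 mice per group leave. They treat the mice as independent. If littermates are among them, the intervals, as the p-values, measure only the spread between these mice. On the Western diet the 95% interval of the E171 difference lay within 2-fold either way for 35 of 37 members, and on the normal diet for 34. Those that reached further were Cyp4a14 and Pdk4 on both diets, and Abcd2 on the normal diet. The differences on the Western diet ran from -0.82 (Cyp4a14, 95% interval -1.98 to 0.34) to 0.24 (Cyp4a10, -0.41 to 0.88). On the normal diet they ran from -0.52 (Pdk4, -1.19 to 0.16) to 0.69 (Abcd2, 0.25 to 1.13, adjusted p = 0.912). Pdk4 gave -0.56 (-1.23 to 0.12) on the Western diet too. Crot had the lowest adjusted p of the members on the Western diet, with a difference of -0.38 (95% interval -0.62 to -0.13, adjusted p = 0.15). Its 8 Western diet E171 mice lay at 4.28 to 5.10 and overlapped the Western diet controls at 4.92 to 5.31. For the leading diet genes the E171 difference was 0.06 on the Western diet and -0.08 on the normal diet for Aldh3a2, 0.21 and -0.22 for Vnn1, and 0.16 and -0.02 for Acaa1b.

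Known PPARα targets were compared mouse by mouse within each group. Cyp4a14, the member with the widest spread, was set against Cyp4a10, Pdk4 and Vnn1 over the 8 mice of each group, which makes 12 relations. In normal diet controls, Cyp4a14 and Cyp4a10 had Pearson's r = 0.893 (exact two-sided permutation p = 0.00384, adjusted over the 12 p = 0.0461) and Spearman's rho = 0.857 (exact permutation p = 0.0107, adjusted p = 0.129). Without the 2 mice farthest from the median of Cyp4a14, r was 0.799. With quantile normalization r was 0.882 and the exact permutation test gave adjusted p = 0.0714, so that this call is lost there. Both genes have similar sequences, and the level of an array is a part of both values. The lowest Cyp4a14 level of this group lay near the detection floor.

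In the same mice Cyp4a14 and Vnn1 had r = 0.823 (exact permutation p = 0.0123, adjusted p = 0.0735) and rho = 0.81 (exact permutation p = 0.0218, adjusted p = 0.131), and r was 0.70 without the 2 farthest mice. Cyp4a14 and Pdk4 had r = 0.532 (exact permutation p = 0.183, adjusted p = 0.439) and rho = 0.405 (exact permutation p = 0.327, adjusted p = 0.617), and r was -0.05 without the 2 farthest. With each value centred on its group and slide, r was 0.889 for Cyp4a10, 0.858 for Vnn1 and 0.826 for Pdk4. These values rest on 4 differences between the 2 mice of a slide. Swapping mice within slides allows 16 arrangements, so that the exact permutation p cannot go below 0.125, and it was 0.25, 0.5 and 0.375. In the other 3 groups r ran from -0.09 to 0.71 over the 9 relations, with rho from -0.31 to 0.52, and none passed by the exact permutation test, the lowest adjusted p being 0.29. The highest of these, Cyp4a14 with Pdk4 in Western diet controls, was 0.709 with all mice and 0.08 without the 2 farthest. No test set the relation in one group against that in another.

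**Figure D4:**
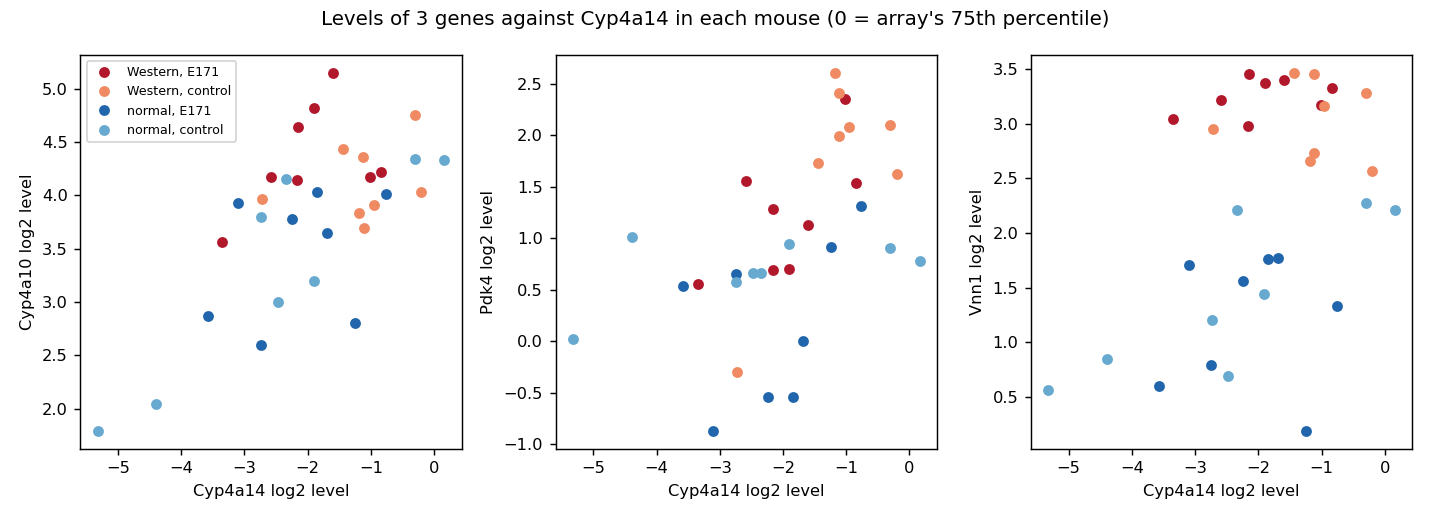
Log2 level of Cyp4a10, Pdk4 and Vnn1 (vertical axes) against that of Cyp4a14 (horizontal axes) in each of the 32 mice, coloured by group (8 each; 0 is the 75th percentile of the array). The normal diet controls (light blue) reach from -5.32 to 0.16 in Cyp4a14, and their Cyp4a10 and Vnn1 levels are low where Cyp4a14 is low.

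Genes of the same pathways outside the 37 did not share one direction. Of the 12 regulators of the PPARα axis, 3 were higher and 4 lower in E171 mice, where 21.9% and 32% of all genes were. In controls 1 was higher and 6 lower, where 18.7% and 28.5% of all genes were. Pparg, the relative known from fat cells, rose by 2.53 in E171 mice (adjusted p = 2.32e-12) and 1.86 in controls (adjusted p = 1.46e-09). Ppard, another receptor of the family, fell by 0.72 in E171 mice (adjusted p = 0.00744) and by 1.06 in controls (adjusted p = 0.000248). The coactivator gene Ppargc1a gave -0.15 in E171 mice (adjusted p = 0.421) and fell by 0.48 in controls (adjusted p = 0.0124). Ppara itself rose by 0.43 in E171 mice (adjusted p = 0.0415) and gave 0.34 in controls (adjusted p = 0.111), and Fgf21, a hormone gene that PPARα activates, gave 0.05 and 0.91 (adjusted p = 0.928 and 0.0611).

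Of 28 further mitochondrial and ketone body genes tested, 10 were higher and 4 lower in E171 mice, beside 21.9% and 32% of all genes, and 4 higher and 5 lower in controls, beside 18.7% and 28.5%. Ucp3, an inner membrane carrier that transports protons or metabolites, rose by 1.39 in E171 mice and 1.18 in controls. Oxct1, which lets tissues use ketone bodies and is normally low in hepatocytes, rose by 1.06 and 0.93. Bdh2, a cytosolic relative of Bdh1 by name, fell by 0.65 and 0.59.

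Of 41 peroxisomal genes outside the 37 that were tested, 9 were higher and 12 lower in E171 mice, beside 21.9% and 32% of all genes, and 6 higher and 21 lower in controls, beside 18.7% and 28.5%. Their median difference was -0.07 and -0.20. Pmp22, on this list by name, encodes a peripheral myelin protein and is left out of these counts. With it, 42 genes were tested, with 10 and 7 higher. Nudt7, a peroxisomal coenzyme A hydrolase, fell by 1.13 in E171 mice and by 1.22 in controls, Hacl1, the lyase of alpha-oxidation, by 1.26 and 1.02, and Agxt, the alanine-glyoxylate aminotransferase, by 1.41 and 0.82. Cat, the catalase that removes hydrogen peroxide, fell by 0.27 and 0.30. Of 10 further omega oxidation genes tested, 2 rose and 3 fell in E171 mice, beside 21.9% and 32% of all genes, and 2 rose and 4 fell in controls, beside 18.7% and 28.5%. Cyp4f14, a fatty acid hydroxylase, fell by 1.41 and 1.25, the alcohol dehydrogenase gene Adh4 fell by 1.03 and 0.73, and Cyp4a31, a further Cyp4a gene, rose by 0.99 and 0.82. With the scaling on hepatocyte markers these differences shift upward as those of the members do, and a small fall such as that of Cat changes sign.

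**Figure D5:**
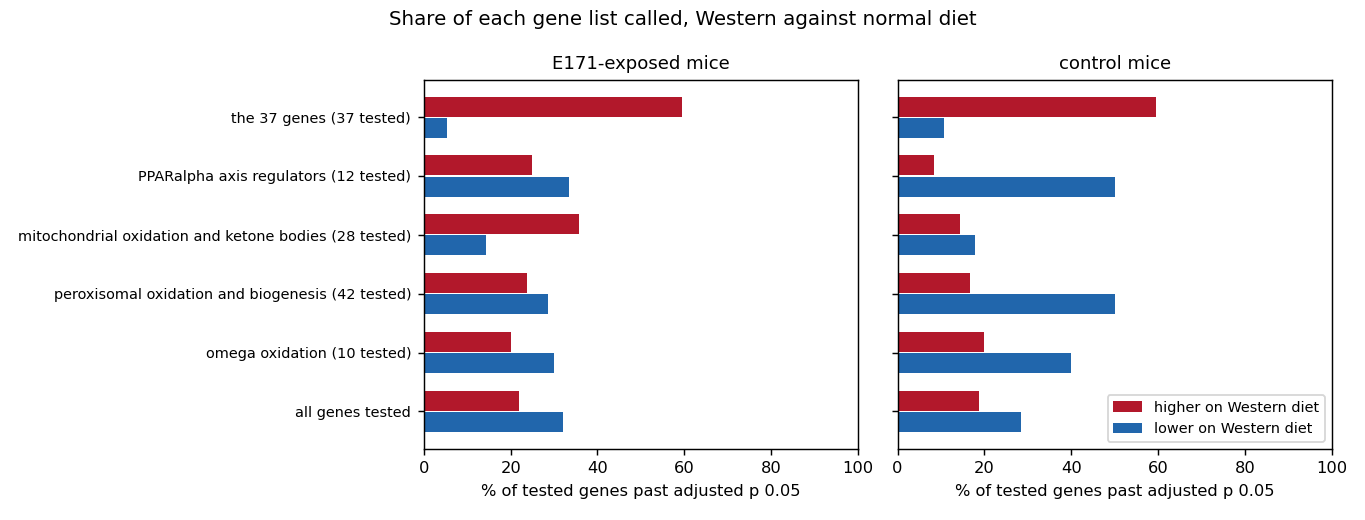
Share of each gene list past an adjusted p of 0.05 (horizontal axis, percent of tested genes) in E171-exposed mice (left) and control mice (right), with red bars for genes higher and blue bars for genes lower on the Western diet. The 37 genes, chosen with earlier results of these data known, have 22 higher in each panel, a larger share than in the other 4 pathway lists drawn (the peroxisomal one with Pmp22) or in all genes tested.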

How the data were processed

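Liver RNA of 32 mice was hybridised to 1-colour Agilent arrays, 1 per mouse. The deposited intensity per spot is the background-corrected signal of Agilent Feature Extraction (version 10.10.1.1 per the submitters' processing notes), with probe positions on mm9 per the file headers. The authors' deposited log2 values, a table of 36695 probes, served as an alternative. Its array medians are 7.121 to 7.183, with every Western diet array (7.1578 or more) above every normal diet array (7.1328 or less). It correlated with the scanner values at 0.992 to 0.9945 per array, and no source used here states its normalization or filter.

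From the scanner files, control spots were left out and outlier spots set to missing (42 to 91 per array, and 0 spots saturated). The remaining spots of a probe were averaged, and no member probe lacked a value on any array. Log2 of the intensity minus that of the 75th percentile of the array was kept for probes well above background on at least 6 of 8 arrays of a group. That left 35777 of 56605 probes and 23644 genes (18247 named, 5397 known by probe only), each by its brightest kept probe, as for 7750 genes with several. limma 3.58.1 (R 4.3.3) fitted 1 mean per group over all 32 arrays, with contrasts for diet within each exposure, E171 within each diet, their interaction and the mean E171 effect, and p-values adjusted by Benjamini-Hochberg over all genes (threshold 0.05). Correlations used exact permutation over all orderings of the 8 mice, computed with numpy 2.4.6. The fit was tested on simulated data. Alternatives were 5 other scalings or backgrounds, 2 filters, the mean of probes, slide or replicate number as a block, and only the groups compared. Leaving out each array was added after seeing the data.

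Members and lists were chosen with earlier results of these data known. Full values are given for the 3 largest rises and falls past the threshold in each diet comparison, 3 paralog pairs, Cpt1a and Bdh1. From each other list the 3 largest changes past the threshold in controls are given by their differences, without group ranges. Crat, Ehhadh, Pdk4 and other genes named beside these were chosen after their values were seen. Some genes of the other lists are not reported here. Array number limits the precision.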

Additional observations from a re-analysis of the deposited data

Results flagged for a closer look

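In 5 of the 148 combinations of a gene and a group, 1 of the 8 mice lay apart from the rest, by Dixon's criterion at the 95% level for the gap to the nearest mouse, which chance does in about 1 in 20 groups. Crat in Western diet E171 mouse 6 stood at 3.58, with the other mice of the group at 3.87 to 4.07. Acaa1b in normal diet E171 mouse 6 stood at 6.29, with the others at 5.61 to 5.92. Abcd3 in Western diet E171 mouse 4 stood at 6.25, with the others at 6.52 to 6.69. Pdk4 in Western diet control 6 stood at -0.30, with the others at 1.62 to 2.61, and the rise of Pdk4 in controls was 1.38 without that mouse. Pdk4 in normal diet control 3 stood at 0.024, with the others at 0.57 to 1.02.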

How the results depend on the processing

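Of the 22 rises in E171 mice 19 stayed called under all 11 alternative settings and 21 without each of the 32 arrays in turn, and of the 22 in controls 18 and 20. Called rises lost were, in E171 mice, Acad11 and Hadhb with the mean of all probes and Echs1 with that mean or without a filter, and, in controls, Acad11 and Hadhb with the mean of all probes, Acadl with only the groups compared, and Cyp4a10 with that or without a filter. Of the falls, 2 in E171 mice and 4 in controls, 0 stayed called under all settings, and 2 and 1 without each array. The cause of these changes was not tested. Quantile normalization, hepatocyte-marker scaling, normexp with quantile and the deposited table move the members upward as a set, so small falls could hardly stay called there. Members lower in E171 mice were 1 with the percentile taken over probes above background on all arrays, and 0 with quantile normalization, hepatocyte-marker scaling, normexp with quantile or the deposited table. In controls they were 1 with that percentile, 0 with the same other 4 settings, and 2 without a filter or with only the groups compared. Leaving out 1 array gave 1 to 5 in controls (1 or 2 where the count moved by over 1.5 times) and 2 in E171 mice, with 21 to 22 higher in E171 mice and 20 to 23 in controls.

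The hepatocyte-marker scaling gave 36 members higher in each comparison, with 19458 genes higher and 454 lower in E171 mice (5179 and 7561 here) and 16591 higher and 580 lower in controls (4419 and 6740 here). In controls 4366 genes were lower in the deposited table. For E171 on the Western diet, with 46 genes higher and 45 lower here, 16 were lower with the hepatocyte-marker scaling, 79 lower in the deposited table, 30 higher and 20 lower without a filter, and 28 higher and 11 lower with only the groups compared. For E171 over both diets, with 44 higher and 42 lower here, 13 were higher and 10 lower with the hepatocyte-marker scaling, 18 higher in the deposited table and 13 higher without a filter. The interaction had 1 gene higher without a filter. No member was called for E171 or the interaction under any alternative.

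These differences changed sign. With the hepatocyte-marker scaling those in E171 mice became 0.38 for Acsl1, 0.30 for Crot, 0.62 for Acadvl, 0.60 for Acaa2, 0.61 for Etfa, 0.45 for Etfb and 0.61 for Abcd2, and those in controls 0.056 for Acsl1, 0.51 for Crot, 0.42 for Acadvl, 0.36 for Acaa2, 0.49 for Eci2, 0.47 for Decr2, 0.35 for Etfa, 0.30 for Etfb and 0.32 for Abcd3. With quantile normalization Acadvl was 0.15 and Etfa 0.14 in E171 mice, and in controls Acadvl 0.13, Acaa2 0.043, Decr2 0.17 and Etfa 0.0502. With normexp and quantile Acadvl was 0.15 and Etfa 0.13 in E171 mice, and in controls Acaa2 0.064, Decr2 0.18 and Etfa 0.045. In the deposited table Acadvl was 0.17 in E171 mice, and in controls Acaa2 0.064, Decr2 0.16, Etfa 0.041 and Etfb 2.7e-05. Among normal diet controls, Cyp4a14 with Cyp4a10 had r = 0.882 with quantile normalization, and 0.889 with values centred on the slide, where 4 differences remain and the exact permutation test cannot pass.

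With the replicate number as a block, E171 on the Western diet gave 86 genes higher and 82 lower, E171 over both diets 86 and 72, and the interaction 1 higher, while 22 members were higher and 2 lower with the diet in E171 mice, and 23 and 3 in controls, where Cyp4a14 passed (1.28, adjusted p = 0.0486) and Etfa did not (-0.17, adjusted p = 0.0533). No label says that a number marks a shared litter, batch or day. Same-numbered mice of different groups correlated at a mean of 0.0697 in their deviations (-0.298 to 0.571), over 0.1 in 23 of 48 pairs, and differently numbered ones at -0.00877 (-0.53 to 0.509), over 0.1 in 74 of 336. Some same-numbered mice also shared a slide. Mice of different groups on the same slide correlated at a mean of 0.0428, over 0.1 in 34 of 96 pairs. Those on different slides correlated at -0.0129, over 0.1 in 63 of 288. Number and slide were not separated in this check, so it cannot decide whether a number pairs mice. The main fit did not pair them, because no label gives the number a meaning.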

Other observations

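The spread between mice differed among the 37 genes. The median SD of the log2 level was 0.153 in Western diet E171 mice, 0.181 in Western diet controls, 0.134 in normal diet E171 mice and 0.216 in normal diet controls. Cyp4a14 had the largest SD in 3 groups, 0.818 in Western diet E171 mice, 0.953 in normal diet E171 mice and 1.85 in normal diet controls, and Pdk4 in Western diet controls, 0.901. The smallest SDs were those of Bdh1 (0.0978), Echs1 (0.118), Hadha (0.0467) and Acadvl (0.0718) in the same order of groups as the medians. No test set these spreads against each other.

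Of the lists of other genes of these pathways, Lpin1 was the only one called in limma for the mean effect of E171 over both diets, where 0.364% of all genes were. It encodes a phosphatidate phosphatase that also acts as a coactivator with PPARα. Its difference was -0.91 (SE 0.21, adjusted p = 0.0411). Its level was 1.37 to 2.63 (median 1.70) in Western diet E171 mice, against 1.87 to 3.69 (median 2.97) in Western diet controls, and 2.08 to 3.56 (median 2.30) in normal diet E171 mice, against 1.72 to 4.18 (median 3.25) in normal diet controls. The groups overlapped on both diets. Lpin1 was singled out after its value was seen, and whether its call holds under the alternative settings was not tested.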
